A study of Mus musculus with 3 samples.

Results

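Glutathione transferases, glutathione peroxidases and the genes that make and recycle glutathione were described across the cell types of mouse testes in which busulfan, a DNA-alkylating agent toxic to germ cells, had been used to model azoospermia. The genes were chosen by symbol: cytosolic transferases of the alpha, kappa, mu, omega, pi, theta and zeta classes, the glutathione peroxidases, the microsomal transferases, and Gclc, Gclm, Gss and Gsr. Of 40 matching genes among 55450 in the files, 36 had at least 50 unique molecular identifiers (UMIs, each marking 1 captured mRNA molecule) over the 3 libraries, and these 36 are the glutathione genes counted throughout. Gsta1, with 49 UMIs, lay just under that minimum, and Gstm3, with 103, was the lowest above it. Gpx2-ps1 (12 UMIs), Gpx5 (7) and Gpx2 (3) were the other genes left out.

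Every mouse had received busulfan. The dEXO library is testis after blood exosomes of mice with a gut microbiota imbalance, the EXO library testis after blood exosomes of wild-type mice, and the PBS library testis after the buffer alone. Cells were captured with 10x Genomics 3′ chemistry, which counts UMIs at transcript ends and so does not scale with transcript length. There was 1 library per group, so no difference between groups could be tested, and the strain, the age and the number of mice behind each library are not given in the sources used here.

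Glutathione is a tripeptide thiol made in successive steps by glutamate-cysteine ligase, whose catalytic subunit is Gclc and whose modifier subunit is Gclm, and by glutathione synthetase, Gss. Transferases join it to electrophiles, peroxidases spend it on hydrogen peroxide and lipid peroxides, and glutathione reductase, Gsr, regenerates it. Busulfan is itself cleared mainly by glutathione conjugation, in human liver chiefly by an alpha-class transferase. In testis, Gpx4 is known both as the peroxidase for membrane lipids and as a structural protein of the sperm midpiece, and steroid-making Leydig cells are known to be rich in cytosolic transferases.

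The libraries held 96655663 UMIs in 9760 barcodes (dEXO), 91787154 UMIs in 10228 barcodes (EXO) and 97253862 UMIs in 5514 barcodes (PBS). After filtering, 9119 dEXO, 9860 EXO and 5267 PBS cells were used, with medians of 3104, 3256.5 and 8398 UMIs per cell in dEXO, EXO and PBS. Only 57 barcode sequences occurred in 2 libraries and 0 in all 3. The glutathione genes took 1.31% of all UMIs in dEXO, 1.52% in EXO and 1.82% in PBS, and Gstm1 and Gstm2 together made up 54.96%, 61.4% and 65.8% of those in dEXO, EXO and PBS. Cells were clustered without the glutathione genes, and clusters were given a cell class, written as X-like, from marker genes. The classes held 2134 dEXO, 2582 EXO and 2144 PBS cells that were Leydig-like, 2631 dEXO, 4354 EXO and 1921 PBS cells that were stromal-like, 561 dEXO, 229 EXO and 80 PBS cells that were Sertoli-like, 265 dEXO, 123 EXO and 76 PBS cells that were spermatogonia-like and 500 dEXO, 288 EXO and 37 PBS cells that were early spermatocyte-like. A further 471 dEXO, 256 EXO and 33 PBS cells were late spermatocyte-like, 983 dEXO, 560 EXO and 81 PBS cells were spermatid-like, 162 dEXO, 204 EXO and 101 PBS cells were macrophage-like and 442 dEXO, 536 EXO and 345 PBS cells were T or NK-like, while 970 dEXO, 728 EXO and 449 PBS cells lay in clusters left unnamed. PBS had 37 early and 33 late spermatocyte-like cells, so those stages were compared between dEXO and EXO only.

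Markers of other cell types were detected in the 9 named classes, and their sums differed between libraries. All 10 of 10 Leydig markers were detected in each of these classes in every library, apart from Nr5a1, which was at 0 in the PBS early spermatocyte-like cells. In the 8 named classes other than Leydig-like their sum ran between 555 CPM (the UMIs of a gene or list scaled to 1000000 UMIs of the class) and 6584.5 CPM in dEXO, between 432 and 2997 CPM in EXO, and between 274 and 6842 CPM in PBS. In the unnamed cells it was 39934 CPM in dEXO, 39964 CPM in EXO and 37557 CPM in PBS. All 10 late spermatocyte markers were higher in dEXO than in PBS in the Leydig-like, stromal-like, Sertoli-like, spermatogonia-like, macrophage-like and T or NK-like cells, where their sum was 341 to 1250 CPM in dEXO, 168 to 506 CPM in EXO and 104 to 202 CPM in PBS. Ccna1 was at 0 in the PBS T or NK-like cells, and Nme8, Piwil1 and Spag6 were at 0 in the PBS macrophage-like cells. The automatic doublet caller marked 6 cells in all and did not work, so droplets with 2 cells remained.

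Promoters are shown for the 5 glutathione genes whose window of 250 bases before to 50 bases after a RefSeq start site holds the core of the antioxidant response element, the sequence that the transcription factor NRF2 binds in many glutathione genes. The core was searched as TGACNNNGC on both strands and occurred in 5 of 42 promoters available for 30 of the genes (11.9%), against 12.4% of 32851 mouse promoters, a share near the background. Of the 5, Gclm was highest in early germ cells, Gsta3 and Mgst1 in Leydig-like cells, Gstm7 in Sertoli-like cells and Gstm5 in spermatid-like cells. The sequences are from RefSeq (GRCm38.p6), 5′ to 3′ on the gene's strand, with the match in capitals. The matches began -121 bases from the start site in Gsta3 (chr1:21240335-21240634, plus strand), -134 in Gclm (chr3:122245307-122245606, plus strand), -56 in Mgst1 (chr6:138140277-138140576, plus strand), -129 in Gstm7 (chr3:107931565-107931864, minus strand) and -42 in Gstm5 (chr3:107895604-107895903, plus strand). In Gclm and Mgst1 the motif reads on the strand opposite to the gene. In GENCODE M21 the Gstm7 gene runs up to 107931817 and the Mgst1 gene begins at 138140316. Both ends lie upstream of the RefSeq start sites used here. The matches of Gstm7 and Mgst1 thus lie inside the annotated gene, not before its outermost start.
Gsta3: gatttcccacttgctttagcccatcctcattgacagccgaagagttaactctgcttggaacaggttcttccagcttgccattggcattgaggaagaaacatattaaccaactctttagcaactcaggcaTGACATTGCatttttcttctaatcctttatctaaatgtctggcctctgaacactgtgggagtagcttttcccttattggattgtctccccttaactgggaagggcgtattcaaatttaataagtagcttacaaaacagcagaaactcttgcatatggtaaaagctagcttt
Gclm: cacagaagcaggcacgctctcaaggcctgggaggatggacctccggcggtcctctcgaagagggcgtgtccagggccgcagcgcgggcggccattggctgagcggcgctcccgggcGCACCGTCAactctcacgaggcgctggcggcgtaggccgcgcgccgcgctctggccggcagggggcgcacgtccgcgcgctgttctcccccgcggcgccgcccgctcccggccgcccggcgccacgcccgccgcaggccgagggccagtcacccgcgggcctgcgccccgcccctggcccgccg
Mgst1: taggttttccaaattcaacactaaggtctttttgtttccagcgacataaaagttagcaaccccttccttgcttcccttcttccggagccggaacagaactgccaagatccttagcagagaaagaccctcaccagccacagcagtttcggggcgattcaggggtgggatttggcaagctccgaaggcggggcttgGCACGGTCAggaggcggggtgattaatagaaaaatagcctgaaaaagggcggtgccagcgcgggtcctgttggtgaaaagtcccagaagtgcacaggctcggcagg
Gstm7: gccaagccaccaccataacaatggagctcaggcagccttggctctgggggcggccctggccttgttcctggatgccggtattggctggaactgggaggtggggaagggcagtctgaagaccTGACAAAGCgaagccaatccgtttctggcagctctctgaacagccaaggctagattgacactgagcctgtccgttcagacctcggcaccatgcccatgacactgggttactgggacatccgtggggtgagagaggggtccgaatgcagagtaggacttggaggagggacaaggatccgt
Gstm5: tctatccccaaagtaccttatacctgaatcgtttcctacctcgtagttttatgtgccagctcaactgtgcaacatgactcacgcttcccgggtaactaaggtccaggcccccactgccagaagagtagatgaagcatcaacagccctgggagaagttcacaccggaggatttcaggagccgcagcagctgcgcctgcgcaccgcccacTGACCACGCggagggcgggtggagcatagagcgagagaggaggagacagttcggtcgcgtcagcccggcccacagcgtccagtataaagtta

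Each cell class carried its own set of glutathione genes, and 32 of the 36 had their highest level in the same class in all 3 libraries. Leydig-like cells led for 9 genes, Sertoli-like, stromal-like and spermatid-like cells for 6 each, T or NK-like cells for 2 and the other classes for the rest. Leading and second classes were taken among the named classes only, without the unnamed cells. The summed level of all 36 genes was 25199 CPM in dEXO, 23642 CPM in EXO and 22594 CPM in PBS in Leydig-like cells, more than in any other class. It was low in the early germ cells, at 1930.0 CPM in dEXO, 1799 CPM in EXO and 1774 CPM in PBS in spermatogonia-like cells and 3919 CPM in dEXO, 2154 CPM in EXO and 1193 CPM in PBS in early spermatocyte-like cells. These sums, and the levels below, are CPM of the UMIs summed over the cells of a class in 1 library, and their intervals cover counting error only.

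**Figure D1:**
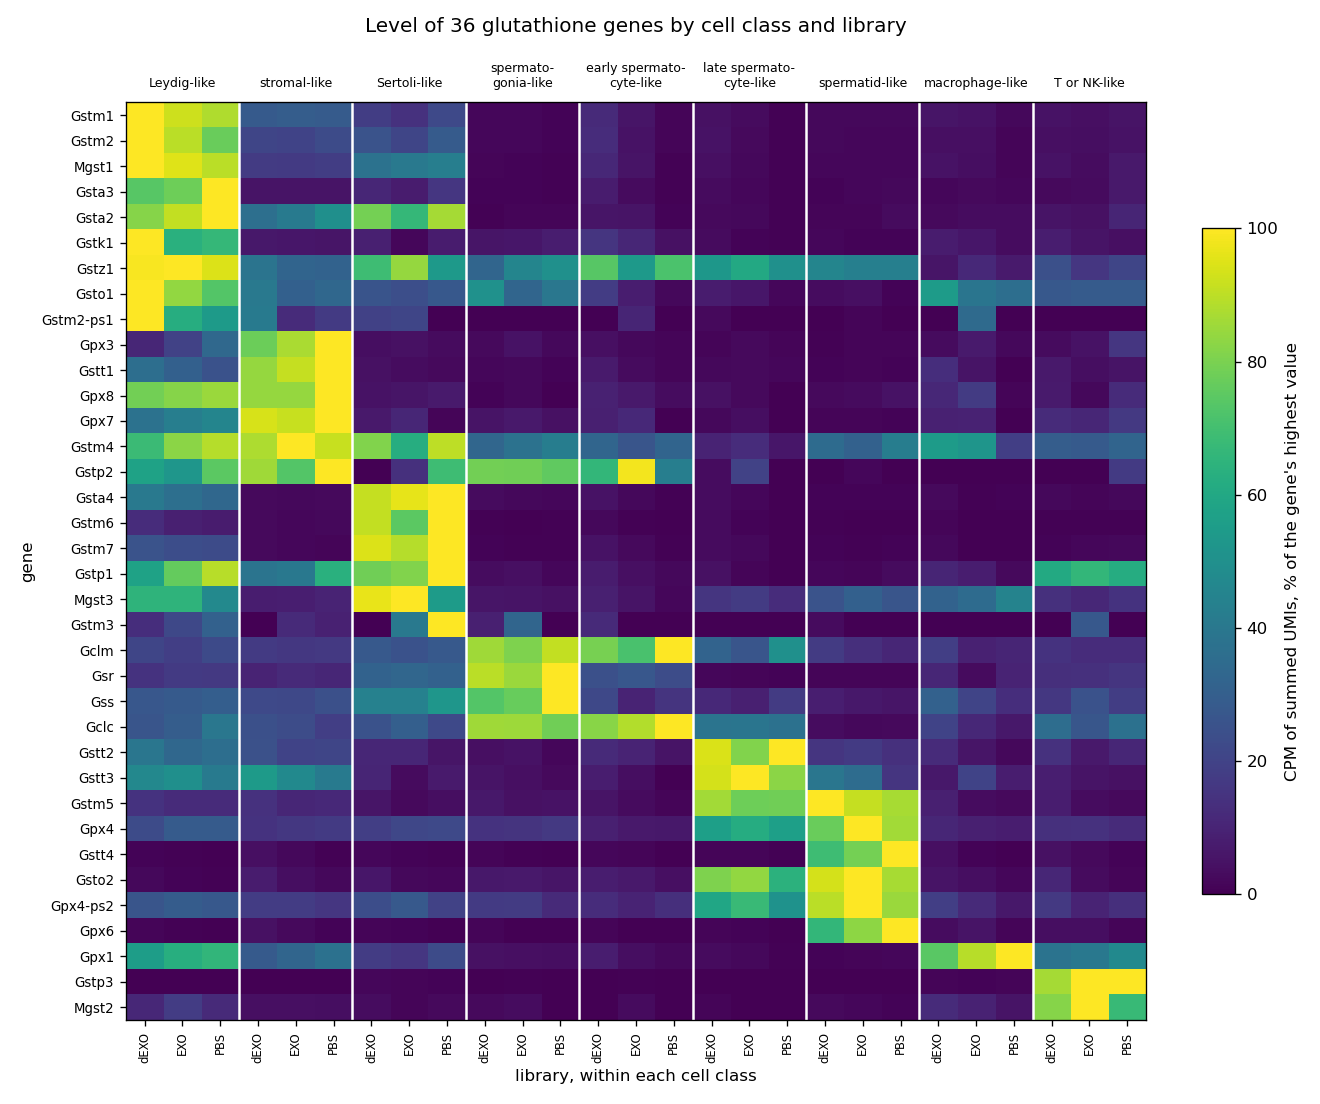
Heat map of the 36 glutathione genes (rows, ordered by leading class) in 9 cell classes, each split into dEXO, EXO and PBS (columns). Colour gives the CPM of summed UMIs as a percent of the gene's own highest value, and blocks of bright cells show the Leydig-like, stromal-like, Sertoli-like, early germ and late germ sets, in each library.

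The mu class dominated in Leydig-like cells. Gstm1, a mu-class transferase, reached 11844 CPM in dEXO, 10955 CPM in EXO and 10449.6 CPM in PBS. Its neighbour on chromosome 3, Gstm2, stood at 6539.7 CPM in dEXO, 5853 CPM in EXO and 5041 CPM in PBS. The microsomal transferase Mgst1, an enzyme of the endoplasmic reticulum and mitochondrial outer membrane with transferase and peroxidase activity, had 1820.5 CPM in dEXO, 1734 CPM in EXO and 1632 CPM in PBS. These genes were also present in stromal-like cells, with 3342 CPM in dEXO, 3486 CPM in EXO and 3397 CPM in PBS for Gstm1 and 1375 CPM in dEXO, 1317 CPM in EXO and 1483 CPM in PBS for Gstm2. There Gstm1 was at 28.2% in dEXO, 31.8% in EXO and 32.5% in PBS of its Leydig-like level, whereas the summed Leydig markers were at 2.9% in dEXO, 3.25% in EXO and 3.75% in PBS of theirs. In spermatogonia-like cells, by contrast, Gstm1 was at 1.83% in dEXO, 1.91% in EXO and 1.28% in PBS of its Leydig-like level and the markers at 0.902% in dEXO, 0.657% in EXO and 0.695% in PBS.

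Alpha-class genes divided between Leydig-like and Sertoli-like cells. Gsta3, whose human counterpart isomerises steroid precursors, had 1044 CPM in dEXO, 1099 CPM in EXO and 1413 CPM in PBS in Leydig-like cells. That was 7.38 times the mean of the second class. Gsta4, which conjugates the lipid peroxidation product 4-hydroxynonenal, was highest in Sertoli-like cells, with 1335 CPM in dEXO, 1407 CPM in EXO and 1463 CPM in PBS, and second in Leydig-like cells, with 589 CPM in dEXO, 532 CPM in EXO and 491 CPM in PBS. Gsta2 was shared more evenly, with 293 CPM in dEXO, 326 CPM in EXO and 359 CPM in PBS in Leydig-like cells and 284 CPM in dEXO, 239 CPM in EXO and 310.4 CPM in PBS in Sertoli-like cells. Of its sequence windows at the transcript end, 6.73% were shared with another gene. Gstk1, the kappa-class enzyme of mitochondria and peroxisomes, had a Leydig-like mean 7.53 times that of the second class.

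Sertoli-like cells, the somatic nurse cells of the seminiferous tubule, led for 6 genes. Besides Gsta4, the mu-class genes Gstm6 and Gstm7 had their highest levels there. Gstm6 stood at 708 CPM in dEXO, 584 CPM in EXO and 780.4 CPM in PBS, 9.16 times the mean of the second class. Gstm7 stood at 607 CPM in dEXO, 571 CPM in EXO and 642 CPM in PBS, 3.93 times the second. The 7 protein-coding mu genes lie side by side on chromosome 3 (GRCm38, 107895821 to 108044894), and within this run Gstm5 was highest in spermatid-like cells, Gstm6 in Sertoli-like cells and Gstm1 in Leydig-like cells.

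Stromal-like cells led for Gpx3, Gpx7, Gpx8, Gstt1, Gstm4 and Gstp2. Gpx3 encodes the secreted peroxidase of plasma, and its level was 249 CPM in dEXO, 280.4 CPM in EXO and 322 CPM in PBS. Gpx7 and Gpx8 are peroxidases of the endoplasmic reticulum, where secreted proteins fold. Gpx7 had 59.9 CPM in dEXO, 58.3 CPM in EXO and 63.6 CPM in PBS in stromal-like cells. Gpx8 had 102 CPM in dEXO, 102 CPM in EXO and 122 CPM in PBS there and nearly as much in Leydig-like cells, 95.7 CPM in dEXO, 99.6 CPM in EXO and 103 CPM in PBS. The theta-class gene Gstt1 had 172 CPM in dEXO, 186 CPM in EXO and 205 CPM in PBS, 2.99 times the mean of the second class. Among the 4 stromal-like clusters Gpx3 was highest in cluster c0, with 446 CPM in dEXO, 519.9 CPM in EXO and 443 CPM in PBS, and lowest in cluster c4, with 121 CPM in dEXO, 171 CPM in EXO and 138 CPM in PBS. The small unnamed cluster c19 (41 dEXO, 60 EXO and 41 PBS cells) stood above the stromal-like class for Gpx3 and Gstt1. It had 726 CPM in dEXO, 588 CPM in EXO and 482 CPM in PBS of Gpx3. Its Gstt1 level was 278 CPM in dEXO, 283 CPM in EXO and 207 CPM in PBS.

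Germ cells differed in their glutathione genes by stage. The early stages led for the 4 genes that make or recycle glutathione. In spermatogonia-like cells Gclm had 294 CPM in dEXO, 276 CPM in EXO and 311 CPM in PBS. Gsr had 243 CPM in dEXO, 230.4 CPM in EXO and 272 CPM in PBS. Both were far lower in spermatid-like cells, at 59.0 CPM in dEXO, 45.8 CPM in EXO and 36.2 CPM in PBS for Gclm and 4.04 CPM in dEXO, 3.22 CPM in EXO and 3.77 CPM in PBS for Gsr. Gclc, the catalytic partner of Gclm, had 106 CPM in dEXO, 105 CPM in EXO and 96.5 CPM in PBS in spermatogonia-like cells, 101 CPM in dEXO, 109 CPM in EXO and 123 CPM in PBS in early spermatocyte-like cells, 47.3 CPM in dEXO, 48.1 CPM in EXO and 46.1 CPM in PBS in late spermatocyte-like cells and 3.87 CPM in dEXO, 2.48 CPM in EXO and 2.92 CPM in PBS in spermatid-like cells. Gss had 27.1 CPM in dEXO, 28.4 CPM in EXO and 37.1 CPM in PBS in spermatogonia-like cells and 3.05 CPM in dEXO, 2.43 CPM in EXO and 2.06 CPM in PBS in spermatid-like cells. Over the 4 genes the sum was 669.9 CPM in dEXO, 639.9 CPM in EXO and 716 CPM in PBS in spermatogonia-like cells and 69.9 CPM in dEXO, 54.0 CPM in EXO and 44.9 CPM in PBS in spermatid-like cells.

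Late germ cells carried another set. Gstm5, a mu-class transferase known to be abundant in testis, had 250.2 CPM in dEXO, 168 CPM in EXO and 189.6 CPM in PBS in spermatogonia-like cells, 3346 CPM in dEXO, 3029 CPM in EXO and 3056 CPM in PBS in late spermatocyte-like cells and 3893 CPM in dEXO, 3546 CPM in EXO and 3382 CPM in PBS in spermatid-like cells. Gpx4 had 364 CPM in dEXO, 378 CPM in EXO and 412 CPM in PBS at the first of these stages, 218 CPM in dEXO, 174 CPM in EXO and 157 CPM in PBS in early spermatocyte-like cells, 1401 CPM in dEXO, 1535 CPM in EXO and 1408 CPM in PBS in late spermatocyte-like cells and 1914 CPM in dEXO, 2486 CPM in EXO and 2144 CPM in PBS in spermatid-like cells. The early spermatocyte-like cells were thus the low point of Gpx4 in every library. Gpx4 shared 75.1% of its end windows with its processed copy Gpx4-ps2 or a further locus, so reads of the pair cannot be told apart with certainty, and Gpx4-ps2 followed the same course, ending at 158 CPM in dEXO, 177 CPM in EXO and 150.1 CPM in PBS.

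The order in which late germ genes appeared differed between them. Gsto2, an omega-class enzyme that reduces dehydroascorbate, was already at 267 CPM in dEXO, 277 CPM in EXO and 212 CPM in PBS in late spermatocyte-like cells and stood at 309 CPM in dEXO, 331 CPM in EXO and 288 CPM in PBS in spermatid-like cells. Gstt2 and Gstt3, of the theta class, had their highest levels in late spermatocyte-like cells. Gstt2 had 222 CPM in dEXO, 191 CPM in EXO and 235 CPM in PBS there and 36.6 CPM in dEXO, 40.1 CPM in EXO and 32.4 CPM in PBS in spermatid-like cells. Their neighbour on chromosome 10, Gstt4, came later. It had 11.7 CPM in dEXO, 10.9 CPM in EXO and 6.44 CPM in PBS in late spermatocyte-like cells and 638 CPM in dEXO, 733 CPM in EXO and 927 CPM in PBS in spermatid-like cells. Gpx6, a peroxidase gene that in mouse has cysteine in place of selenocysteine, showed the same late course, with 78.9 CPM in dEXO, 98.9 CPM in EXO and 119 CPM in PBS in spermatid-like cells. Gstt4 in spermatid-like cells was 31.7 times and Gpx6 25.8 times the mean of the second class.

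Immune classes had few leading genes. Among the named classes Gpx1, the cytosolic selenium peroxidase, was highest in macrophage-like cells, with 783 CPM in dEXO, 939 CPM in EXO and 1051 CPM in PBS, and second in Leydig-like cells, with 585 CPM in dEXO, 658 CPM in EXO and 692 CPM in PBS. With clusters at Leiden resolution 0.5, Leydig-like cells led for Gpx1. Gstp3, a pi-class gene, was highest in T or NK-like cells. It had 115 CPM in dEXO, 133 CPM in EXO and 133 CPM in PBS there and a mean 70.3 times that of the second class. Mgst2, a membrane enzyme able to make leukotriene C4, had 25.8 CPM in dEXO, 31.6 CPM in EXO and 21.3 CPM in PBS. The 2 T or NK-like clusters differed. Cluster c18, with Il17a among the genes it led for, had 1029.9 CPM in dEXO, 1296 CPM in EXO and 1356 CPM in PBS of Gpx1, against 234 CPM in dEXO, 209 CPM in EXO and 248 CPM in PBS in cluster c8. In every library the Gpx1 level of cluster c18 was above that of macrophage-like cells. Gstp1 had 234 CPM in dEXO, 309.7 CPM in EXO and 249 CPM in PBS in cluster c18 and 80.6 CPM in dEXO, 77.1 CPM in EXO and 76.6 CPM in PBS in cluster c8, and Gstp3 ran the other way, with 82.1 CPM in dEXO, 88.5 CPM in EXO and 107 CPM in PBS in cluster c18 and 124 CPM in dEXO, 144 CPM in EXO and 141 CPM in PBS in cluster c8. Sertoli-like cells, the leading class of Gstp1, were below cluster c18, with 146 CPM in dEXO, 150 CPM in EXO and 186 CPM in PBS.

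**Figure D2:**
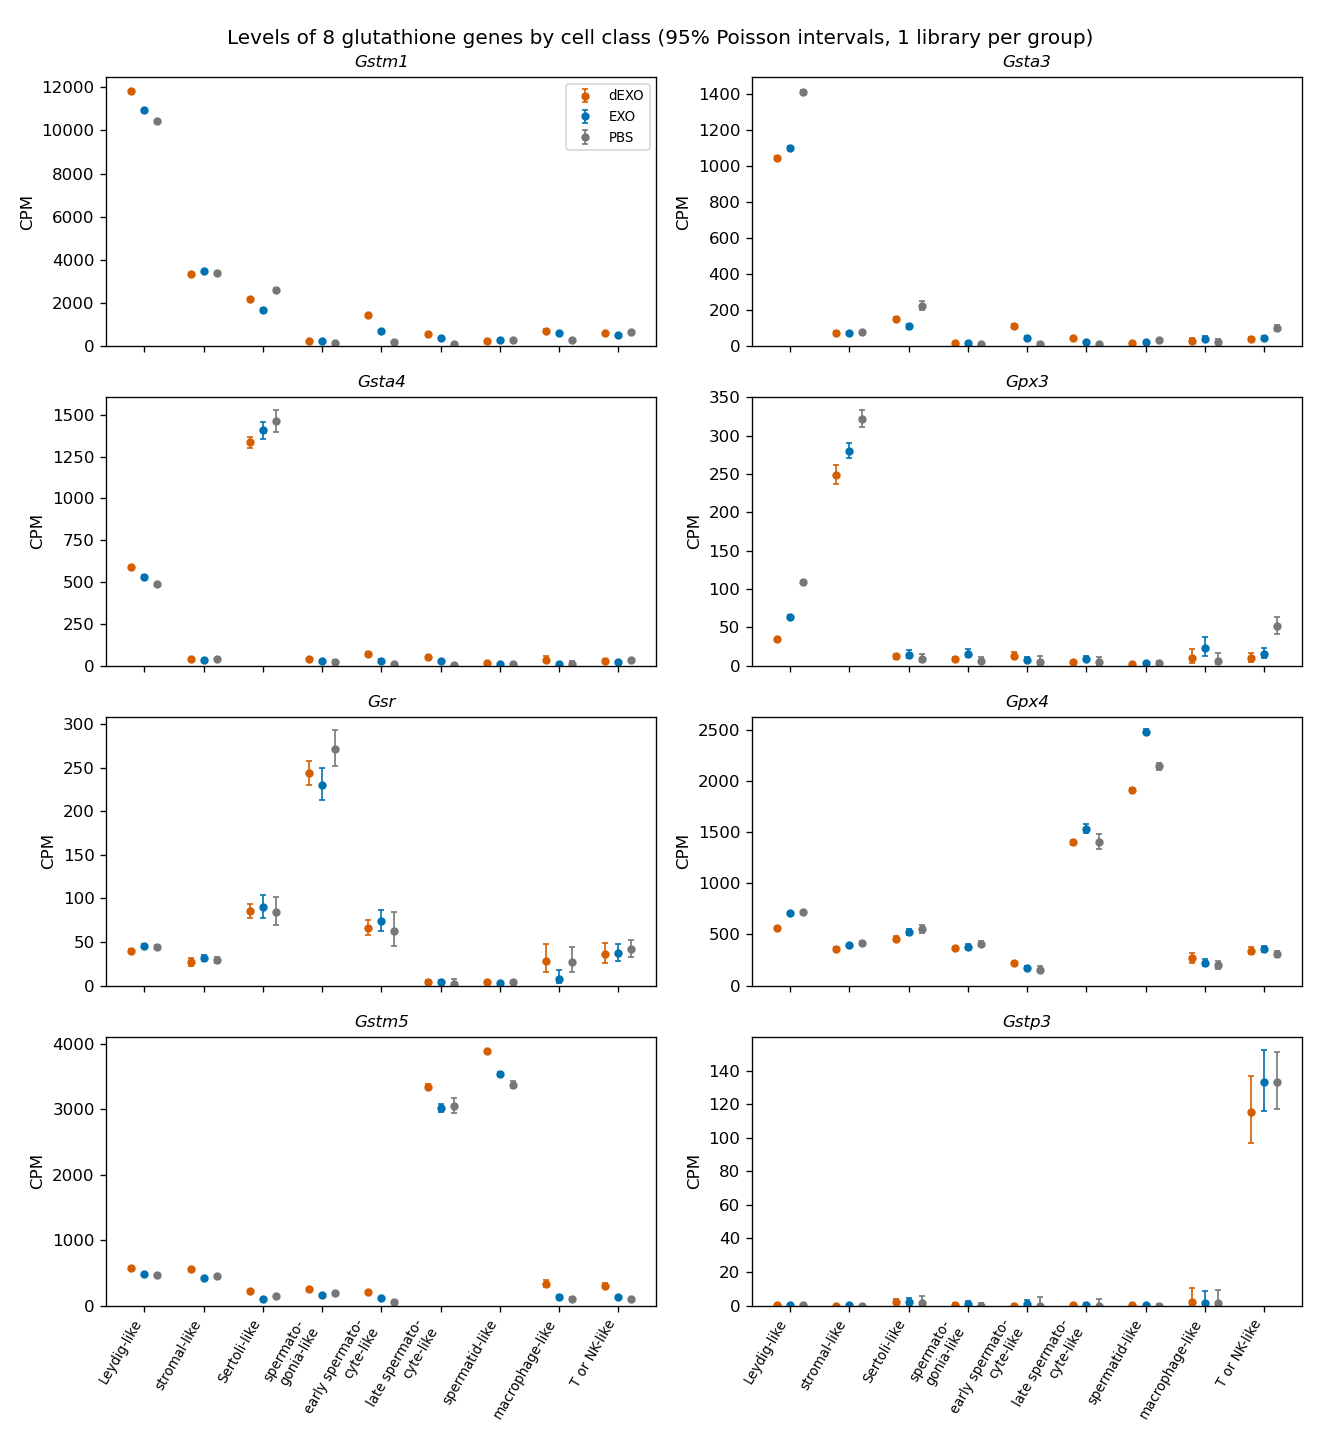
CPM of 8 glutathione genes (one panel each) in 9 cell classes, with dEXO, EXO and PBS side by side. Points are summed UMIs of 1 library with 95% Poisson intervals. Gstm1 and Gsta3 stand highest in Leydig-like cells, Gsta4 in Sertoli-like, Gpx3 in stromal-like, Gsr in spermatogonia-like, Gpx4 and Gstm5 in spermatid-like and Gstp3 in T or NK-like cells.

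The libraries were then compared within each class, to ask whether exosomes from either donor went with other levels of these genes. A gene was measured in a class where it had at least 50 UMIs over both libraries, and counted as differing where its CPM differed by 1.5-fold or more. A log2 ratio is given with its exact 95% binomial interval of the 2 counts. With 1 library per group these are differences between libraries and carry no replicate check.

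**Figure D3:**
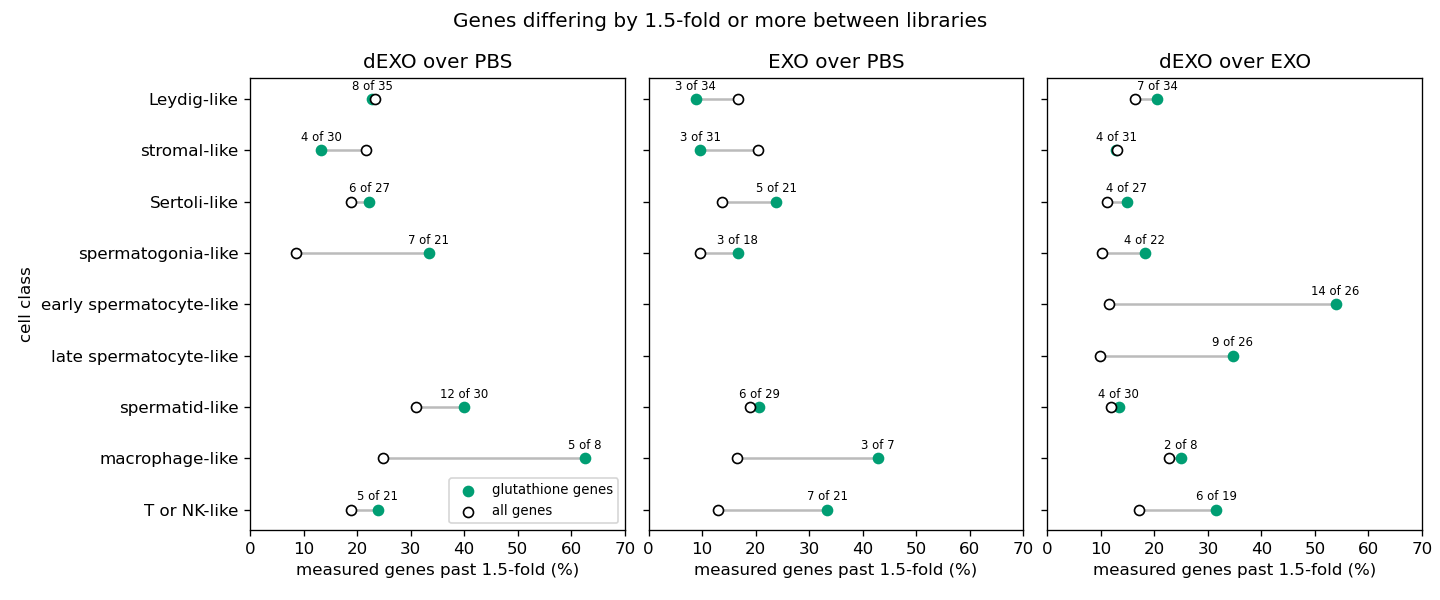
Share of measured genes that differed by 1.5-fold or more (percent, horizontal axis) in each cell class (rows), for dEXO over PBS, EXO over PBS and dEXO over EXO. Filled points are the glutathione genes, with their counts, and open points all measured genes. The shares lie near each other in Leydig-like cells and apart in early spermatocyte-like cells, at 14 of 26 glutathione genes against 11.6% of all genes.

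In Leydig-like cells few glutathione genes differed between libraries, at shares near or below the background against PBS. Between dEXO and PBS 8 of 35 measured genes differed (22.9%), 5 higher and 3 lower in dEXO, against 23.4% of all genes (17.7% higher and 5.71% lower). Between EXO and PBS it was 3 of 34 (8.82%), 2 higher and 1 lower in EXO, against 16.6% of all genes (12.2% higher and 4.4% lower). Between dEXO and EXO it was 7 of 34 (20.6%), 5 higher and 2 lower in dEXO, against 16.3% of all genes (13.1% higher and 3.22% lower). The abundant genes stayed under 1.5-fold. The log2 ratio of Gstm1 was 0.18 (0.17 to 0.19) for dEXO over PBS and 0.068 (0.063 to 0.073) for EXO over PBS. Gstm2 gave 0.38 (0.37 to 0.38) and 0.22 (0.21 to 0.22) for the same pairs, and Gsta3 gave -0.44 (-0.46 to -0.42) and -0.36 (-0.38 to -0.35).

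Gpx3 was the Leydig-like gene that differed most on the lower side. It stood at 34.2 CPM in dEXO, 63.4 CPM in EXO and 108 CPM in PBS. The level was lowest in dEXO and highest in PBS, with log2 ratios of -1.67 (-1.76 to -1.57) for dEXO over PBS, -0.77 (-0.84 to -0.71) for EXO over PBS and -0.89 (-0.99 to -0.79) for dEXO over EXO. The Leydig-like cells of the libraries lay in different clusters. Cluster c1 held 1677 dEXO, 777 EXO and 152 PBS cells, cluster c3, led by kallikrein genes, held 93, 1003 and 1202 from dEXO, EXO and PBS, and cluster c5, with 4 of 10 Leydig markers raised, held 364, 802 and 790. In cluster c1 Gpx3 had 23.7 CPM in dEXO, 36.7 CPM in EXO and 32.6 CPM in PBS, and in cluster c5 it had 120.1 CPM in dEXO, 127 CPM in EXO and 119 CPM in PBS. Within cluster c5 the libraries were alike, with 0.014 (-0.15 to 0.17) for dEXO over PBS and 0.095 (-0.0083 to 0.20) for EXO over PBS. Within cluster c3 the difference was there, with 38.9 CPM in dEXO, 50.9 CPM in EXO and 112 CPM in PBS and -1.14 (-1.23 to -1.04) for EXO over PBS. Within cluster c1 the ratio was -0.63 (-0.81 to -0.45) for dEXO over EXO and 0.17 (-0.10 to 0.45) for EXO over PBS. The class difference was thus not present in every cluster.

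Gstk1 was higher in dEXO than in EXO in the class and in each of its clusters. The class values were 154 CPM in dEXO, 97.4 CPM in EXO and 103 CPM in PBS, a log2 ratio of 0.66 (0.60 to 0.72) for dEXO over EXO. Within the clusters that ratio was 0.48 (0.39 to 0.56) in c1, 0.47 (0.23 to 0.69) in c3 and 0.46 (0.22 to 0.70) in c5, all under 1.5-fold. Against PBS the same gene gave 0.12 (-0.00046 to 0.24) for dEXO in cluster c1.

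Gstm6 and Gstp1 differed between dEXO and PBS in the class, and the ratios of each varied between clusters. Gstm6 had 98.7 CPM in dEXO, 69.2 CPM in EXO and 58.4 CPM in PBS, a log2 ratio of 0.76 (0.69 to 0.83) for dEXO over PBS. Within cluster c1 that ratio was -0.32 (-0.45 to -0.19), within c3 0.21 (-0.11 to 0.52) and within c5 0.93 (0.62 to 1.22). Gstp1, the main pi-class transferase, had 107 CPM in dEXO, 142 CPM in EXO and 166 CPM in PBS, a log2 ratio of -0.63 (-0.68 to -0.57) for dEXO over PBS. Within clusters c1, c3 and c5 it was -0.16, -0.14 and -0.39, all under 1.5-fold. Gstp1 shared 67.3% of its end windows with Gstp2 or a related copy, so the counts of the pair are uncertain.

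**Figure D4:**
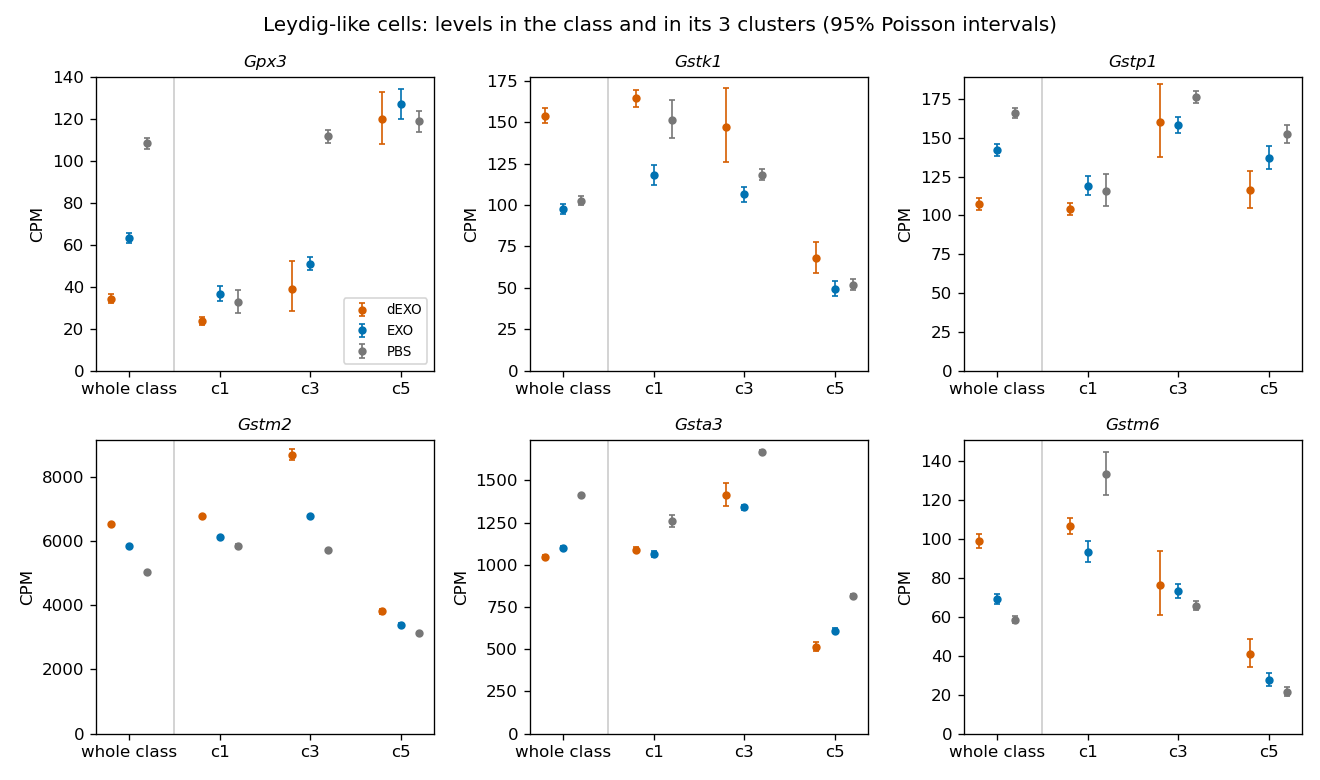
CPM of 6 glutathione genes in the whole Leydig-like class and in its clusters c1, c3 and c5, for dEXO, EXO and PBS. Points are summed UMIs of 1 library with 95% Poisson intervals. Gpx3 is alike in the libraries within cluster c5 and differs within c3, while Gstk1 is higher in dEXO than in EXO in all 3 clusters, by less than 1.5-fold.

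Among less abundant genes of the Leydig-like class, Gstt4 had 9.21 CPM in dEXO, 4.6 CPM in EXO and 2.19 CPM in PBS, with a log2 ratio of 2.07 (1.78 to 2.37) for dEXO over PBS. Gsto2 had 7.75 CPM in dEXO, 2.89 CPM in EXO and 1.77 CPM in PBS, and its ratio was 2.13 (1.81 to 2.47). Gpx6 had 1.76 CPM in dEXO, 0.625 CPM in EXO and 0.302 CPM in PBS, and its ratio was 2.54 (1.77 to 3.36), which turned to -0.13 with the lowest class level subtracted, where dEXO over EXO gave -1.18. Gstt4, Gsto2 and Gpx6 are among the 6 genes that led in spermatid-like cells. The others, Gstm5, Gpx4 and Gpx4-ps2, stayed under 1.5-fold in every pair. The late spermatocyte markers, 10 of 10 detected, had the same order of libraries as Gstt4, Gsto2 and Gpx6. These markers summed to 341 CPM in dEXO, 168 CPM in EXO and 104 CPM in PBS, and their part in the result was not tested. Gstm2-ps1, named as a pseudogene of Gstm2 and sharing 18.0% of its end windows with mu genes, had 4.37 CPM in dEXO, 2.73 CPM in EXO and 2.38 CPM in PBS. Mgst2 had 3.51 CPM in dEXO, 5.62 CPM in EXO and 3.8 CPM in PBS, and Gstm3 had 0.298 CPM in dEXO, 0.486 CPM in EXO and 0.694 CPM in PBS.

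In stromal-like cells between 3 and 4 glutathione genes differed in each pair. For dEXO over PBS 4 of 30 measured genes differed (13.3%), 3 higher and 1 lower, against 21.7% of all genes (20% higher and 1.71% lower). For EXO over PBS it was 3 of 31 (9.68%), 2 higher and 1 lower, against 20.4% of all genes (19.1% higher and 1.32% lower). For dEXO over EXO it was 4 of 31 (12.9%), all higher in dEXO, against 13.1% of all genes (11.2% higher and 1.87% lower). The median log2 ratio of all measured genes was itself 0.23 for dEXO over PBS and 0.26 for EXO over PBS, against -0.053 and -0.076 for the glutathione genes.

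Gstp1 was the stromal-like gene lower in both exosome libraries. It had 71.2 CPM in dEXO, 74.3 CPM in EXO and 118 CPM in PBS, with log2 ratios of -0.73 (-0.89 to -0.57) for dEXO over PBS and -0.67 (-0.80 to -0.53) for EXO over PBS, or -0.96 and -0.93 relative to the median gene. Within the stromal-like clusters dEXO over PBS was -0.27 (-0.51 to -0.04) in c0, -0.58 (-1.01 to -0.17) in c2, -0.19 (-0.60 to 0.22) in c4 and -0.40 (-0.88 to 0.066) in c6. The direction was the same in all 4 clusters, and 1.5-fold was reached in none of them, cluster c2 lying just under it. The class ratio was larger than that of any of its clusters, whose shares differed between libraries: cluster c0 held 647 of 2631 dEXO, 968 of 4354 EXO and 1004 of 1921 PBS cells of the class. The abundant genes of the class stayed close, with -0.023 for Gstm1, -0.11 for Gstm2, 0.32 for Gstm5 and -0.22 for Gpx4 as log2 ratios of dEXO over PBS.

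Higher in dEXO than in PBS or EXO in stromal-like cells were Gstm7 and 3 genes that spermatid-like cells lead, Gstt4, Gsto2 and Gpx6. Gstm7 had 16.8 CPM in dEXO, 11.2 CPM in EXO and 9.38 CPM in PBS, a log2 ratio of 0.84 (0.42 to 1.27) for dEXO over PBS (0.61 relative to the median gene). Gstt4 had 36.7 CPM in dEXO, 18.8 CPM in EXO and 6.32 CPM in PBS, Gsto2 had 25.3 CPM in dEXO, 12.3 CPM in EXO and 7.16 CPM in PBS and Gpx6 had 5.59 CPM in dEXO, 2.92 CPM in EXO and 0.948 CPM in PBS, Gpx6 having enough UMIs for dEXO over EXO alone, at 0.94 (0.20 to 1.67). The late germ genes Gstm5, Gpx4, Gstt2 and Gstt3 were under 1.5-fold in every pair. The late spermatocyte markers, all 10 detected, ran the same way as Gstt4, Gsto2 and Gpx6. Their sums were 1021 CPM in dEXO, 423 CPM in EXO and 175 CPM in PBS, and the part of these markers was not tested.

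In Sertoli-like cells 6 of 27 measured genes differed for dEXO over PBS (22.2%), all higher in dEXO, against 18.8% of all genes (15.1% higher and 3.63% lower). For EXO over PBS 5 of 21 differed (23.8%), 3 higher and 2 lower in EXO, against 13.7% of all genes (9.75% higher and 3.92% lower). For dEXO over EXO it was 4 of 27 (14.8%), all higher in dEXO, against 11.1% of all genes (8.25% higher and 2.86% lower). PBS had 80 such cells. Of the 6 genes that Sertoli-like cells lead, Mgst3 was past 1.5-fold against PBS and Gstm3 had too few UMIs, while Gsta4, Gstm6, Gstm7 and Gstp1 differed by less than 1.5-fold in all 3 pairs: Gsta4 gave -0.13 and -0.056 for dEXO and EXO over PBS, Gstm6 -0.14 and -0.42, Gstm7 -0.081 and -0.17, and Gstp1 -0.35 and -0.31.

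Mgst3, a microsomal transferase with peroxidase activity, was higher in Sertoli-like cells of both exosome libraries than in those of PBS. Sertoli-like cells had 164 CPM in dEXO, 170.0 CPM in EXO and 93.0 CPM in PBS of it, with log2 ratios of 0.82 (0.55 to 1.11) for dEXO over PBS and 0.87 (0.57 to 1.18) for EXO over PBS. Leydig-like cells had 111 CPM in dEXO, 111 CPM in EXO and 80.2 CPM in PBS, so Mgst3 ran the same way there without reaching 1.5-fold. It ran the other way, also under 1.5-fold, in macrophage-like, stromal-like and T or NK-like cells. Macrophage-like cells had 53.6 CPM in dEXO, 59.2 CPM in EXO and 75.8 CPM in PBS. In Sertoli-like cells Gstt2 had 25.4 CPM in dEXO, 25.5 CPM in EXO and 13.5 CPM in PBS, and its ratio for EXO over PBS turned to -0.24 with each cell counting equally. Gstz1, the enzyme of tyrosine breakdown also known as maleylacetoacetate isomerase, had 45.8 CPM in dEXO, 55.9 CPM in EXO and 35.986 CPM in PBS.

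Gsta3 and Gstm1, which Leydig-like cells lead, were lower in EXO than in PBS in Sertoli-like cells. Gsta3 had 151 CPM in dEXO, 109 CPM in EXO and 223 CPM in PBS, a log2 ratio of -1.04 (-1.29 to -0.79) for EXO over PBS. Gstm1 had 2156 CPM in dEXO, 1679 CPM in EXO and 2592 CPM in PBS, and its ratio was -0.63 (-0.69 to -0.56). Gstm2 had 1673 CPM in dEXO, 1363 CPM in EXO and 1865 CPM in PBS and Mgst1 had 688 CPM in dEXO, 739 CPM in EXO and 775 CPM in PBS, both under 1.5-fold in every pair. The 10 Leydig markers, all detected, summed to 4302 CPM in dEXO, 2071 CPM in EXO and 6842 CPM in PBS in these cells, the same order of the libraries as Gsta3 and Gstm1. Against PBS, 8 were lower and 2 higher in EXO, and 7 lower and 3 higher in dEXO. The part of these markers was not tested. Gstm5 had 227 CPM in dEXO, 106 CPM in EXO and 141 CPM in PBS, Gsto2 had 19.6 CPM in dEXO, 7.73 CPM in EXO and 5.25 CPM in PBS and Gstt4 had 15.6 CPM in dEXO, 7.27 CPM in EXO and 5.25 CPM in PBS. The late spermatocyte markers, all 10 detected, summed to 683 CPM in dEXO, 336 CPM in EXO and 181 CPM in PBS, and their part was not tested. Gstk1 had 13.5 CPM in dEXO, 2.73 CPM in EXO and 11.995 CPM in PBS.

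Spermatogonia-like cells had high levels of glutathione synthesis genes in each library, with log2 ratios for dEXO over PBS of -0.082 for Gclm, 0.13 for Gclc, -0.16 for Gsr and -0.18 for Gpx4. Over all measured genes of the set 7 of 21 differed for dEXO over PBS (33.3%), 6 higher and 1 lower, against 8.53% of all genes (6.48% higher and 2.05% lower). For EXO over PBS it was 3 of 18 (16.7%), all higher in EXO, against 9.6% of all genes (4.9% higher and 4.71% lower). For dEXO over EXO it was 4 of 22 (18.2%), 3 higher and 1 lower, against 10.2% of all genes (7.34% higher and 2.88% lower). PBS had 76 cells of this class.

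Those that differed were mostly genes of other classes at low levels. Gstm1 had 217 CPM in dEXO, 209 CPM in EXO and 134 CPM in PBS, with log2 ratios of 0.70 (0.52 to 0.88) for dEXO over PBS and 0.65 (0.45 to 0.85) for EXO over PBS. Gstm2 had 109 CPM in dEXO, 104 CPM in EXO and 70.5 CPM in PBS, Mgst1 had 23.4 CPM in dEXO, 14.6 CPM in EXO and 14.0 CPM in PBS and Gsta4 had 40.8 CPM in dEXO, 29.2 CPM in EXO and 23.9 CPM in PBS. The 10 Leydig markers, all detected, stood at 555 CPM in dEXO, 432 CPM in EXO and 386 CPM in PBS. Against PBS, 7 were higher and 3 lower in each exosome library, and their part was not tested. Gstt4 had 11.3 CPM in dEXO, 3.65 CPM in EXO and 1.24 CPM in PBS, Gstt2 had 9.71 CPM in dEXO, 11.3 CPM in EXO and 4.53 CPM in PBS and Gpx3 had 8.32 CPM in dEXO, 15.7 CPM in EXO and 6.6 CPM in PBS. Gsto1, an omega-class reductase, had 31.7 CPM in dEXO, 20.4 CPM in EXO and 24.7 CPM in PBS, and Gstz1 had 21.8 CPM in dEXO, 30.3 CPM in EXO and 33.4 CPM in PBS, dEXO being the highest library for Gsto1 and the lowest for Gstz1.

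Early spermatocyte-like cells gave the highest share of differing glutathione genes between dEXO and EXO. There 14 of 26 measured genes differed (53.8%), all higher in dEXO, against 11.6% of all genes (10.1% higher and 1.55% lower), and the median log2 ratio was 0.76 for the glutathione genes and 0.031 for all genes. Gstm1 had 1423 CPM in dEXO and 678 CPM in EXO, a log2 ratio of 1.07 (0.99 to 1.15). Gstm2 had 819 CPM in dEXO and 316 CPM in EXO, and its ratio was 1.37 (1.25 to 1.496). Gsta3 had 109.7 CPM in dEXO and 44.0 CPM in EXO, Gsta4 had 72.4 CPM in dEXO and 29.3 CPM in EXO and Mgst1 had 199.9 CPM in dEXO and 96.7 CPM in EXO. Gpx1 had 82.7 CPM in dEXO and 40.8 CPM in EXO, Gstm6 had 17.3 CPM in dEXO and 5.5 CPM in EXO, Gstm7 had 31.1 CPM in dEXO and 15.6 CPM in EXO, Gstt1 had 14.6 CPM in dEXO and 5.96 CPM in EXO, Gstp1 had 14.3 CPM in dEXO and 7.33 CPM in EXO and Gsto1 had 11.1 CPM in dEXO and 5.04 CPM in EXO. With each cell counting equally the ratio was -0.37 for Gstm6 and -0.18 for Gstt1, at Leiden resolution 0.5 it was -0.049 for Gsta3, and without the highest doublet scores it was -0.031 for Gpx1.

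The genes that led in early germ cells stayed under 1.5-fold, as did Gpx4. Gclm had 272 CPM in dEXO and 245 CPM in EXO, Gclc had 101 CPM in dEXO and 109 CPM in EXO and Gpx4 had 218 CPM in dEXO and 174 CPM in EXO. Their log2 ratios of dEXO over EXO were 0.15 (0.00076 to 0.31), -0.11 (-0.35 to 0.13) and 0.33 (0.15 to 0.51). Most of those that differed led in Leydig-like or Sertoli-like cells, and the summed Leydig markers, 10 of 10 detected and 9 of 10 higher in dEXO, were 6584.5 CPM in dEXO and 2997 CPM in EXO. Their part was not tested. In cluster c7.2, where 12 of 22 measured glutathione genes differed against 12.6% of all genes, the markers summed to 14091 CPM in dEXO and 6430 CPM in EXO and Gstm1 had 2826 CPM in dEXO and 1276 CPM in EXO. In cluster c7.0, where 1 of 6 differed against 16.7% of all genes, with 1133 CPM of Leydig markers in dEXO and 1924 CPM in EXO, Gstm1 went the other way at 518 CPM in dEXO and 684 CPM in EXO. In cluster c7.3, where 4 of 13 differed against 7.97% of all genes, the markers were at 409 CPM in dEXO and 442 CPM in EXO, and Gstm1 had 243 CPM in dEXO and 202 CPM in EXO. Gstm5 had 212 CPM in dEXO and 112 CPM in EXO over the class. Late spermatocyte markers were at 580 CPM in dEXO and 351 CPM in EXO, and their part was not tested.

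**Figure D5:**
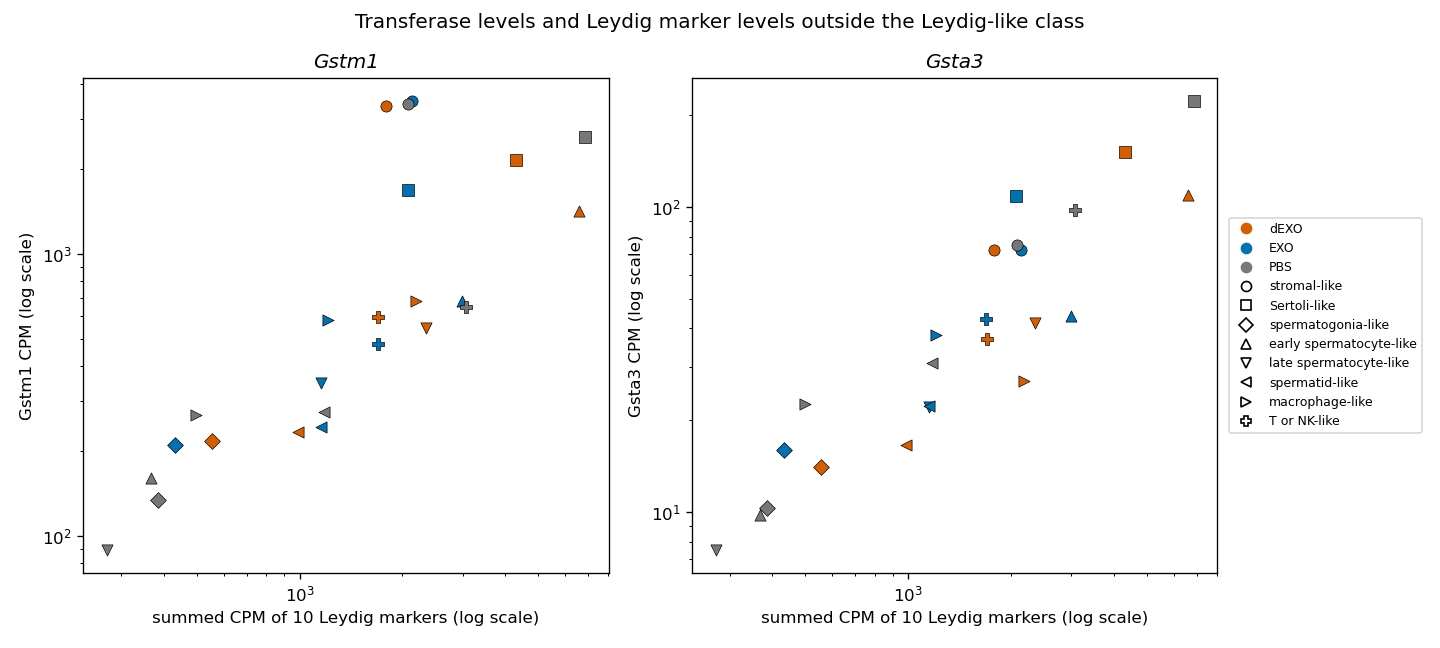
Gstm1 (left) and Gsta3 (right) CPM against the summed CPM of 10 Leydig markers, both on log scales, for 8 classes other than Leydig-like. Shapes are classes and colours dEXO, EXO and PBS. In early spermatocyte-like cells the dEXO point lies above and to the right of the EXO point for both genes, at 6584.5 against 2997 CPM of markers, and the stromal-like and Sertoli-like points carry more Gstm1 than other classes at like marker levels.

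Late spermatocyte-like cells were compared in the same way. In the dEXO over EXO comparison 9 of 26 measured genes differed (34.6%), 8 higher and 1 lower in dEXO, against 9.76% of all genes (6.11% higher and 3.65% lower). Gstm1 had 544 CPM in dEXO and 348 CPM in EXO, Gstm2 had 313 CPM in dEXO and 159 CPM in EXO and Gsta3 had 41.5 CPM in dEXO and 22.1 CPM in EXO. Gsta4 had 51.4 CPM in dEXO and 26.0 CPM in EXO, Gstm6 had 22.0 CPM in dEXO and 6.41 CPM in EXO, Mgst1 had 75.2 CPM in dEXO and 42.7 CPM in EXO and Gstp1 had 8.53 CPM in dEXO and 2.89 CPM in EXO, while Gpx3 had 4.55 CPM in dEXO and 8.66 CPM in EXO, and its log2 ratio turned to 0.40 with each cell counting equally. The Leydig markers, 10 of 10 detected and 8 of 10 higher in dEXO, summed to 2346 CPM in dEXO and 1154 CPM in EXO, and their part in these differences was not tested. Gstt2 and Gstt3, which lead at this stage, were under 1.5-fold, with log2 ratios of 0.22 (0.088 to 0.36) for Gstt2 and -0.096 (-0.34 to 0.15) for Gstt3. So were the abundant Gstm5, with 0.14 (0.11 to 0.18), Gpx4, with -0.13 (-0.18 to -0.084), and Gsto2, with -0.053 (-0.17 to 0.061).

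Spermatid-like cells had 12 of 30 measured genes that differed for dEXO over PBS (40.0%), 5 higher and 7 lower in dEXO, against 31% of all genes (20.3% higher and 10.7% lower). For EXO over PBS it was 6 of 29 (20.7%), 3 higher and 3 lower, against 18.9% of all genes (10.9% higher and 7.98% lower). Between dEXO and EXO it was 4 of 30 (13.3%), 2 higher and 2 lower, against 12% of all genes (8.95% higher and 3.05% lower). Over the class as a whole these shares lay near the background in the last 2 pairs. PBS had 81 such cells, with a median of 19664 UMIs per cell, against 2976 in dEXO and 3005.5 in EXO. Cluster c10 held 595 dEXO, 322 EXO and 33 PBS cells, and cluster c13 held 388, 238 and 48 from dEXO, EXO and PBS. Within cluster c10, 9 of 24 measured glutathione genes differed for dEXO over EXO, against 12.6% of all genes. Within cluster c13 it was 6 of 30, against 14.8%. The Leydig markers summed to 6007 CPM in dEXO and 10574 CPM in EXO in cluster c10. In cluster c13 they summed to 640 CPM in dEXO and 590 CPM in EXO. The part of these markers was not tested. The median log2 ratio of all genes for dEXO over PBS was 0.13.

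Among genes that the germ cells lead, Gstt3 was higher in both exosome libraries. It had 24.0 CPM in dEXO, 21.5 CPM in EXO and 9.43 CPM in PBS, with log2 ratios of 1.34 (0.95 to 1.77) for dEXO over PBS (1.21 relative to the median gene) and 1.19 (0.78 to 1.62) for EXO over PBS. Gclm had 59.0 CPM in dEXO, 45.8 CPM in EXO and 36.2 CPM in PBS, and its ratio for dEXO over PBS was 0.70 (0.50 to 0.92), or 0.57 relative to the median gene. Gpx6 had 78.9 CPM in dEXO, 98.9 CPM in EXO and 119 CPM in PBS, and its ratio was -0.60 (-0.72 to -0.47), or -0.73 relative to the median gene. Gstt3 and Gclm had higher levels at stages before the spermatid. So did Gstt2, Gss, Gsr and Gclc, which stayed under 1.5-fold for dEXO over PBS, at 0.17, 0.57, 0.097 and 0.41. The 12 spermatid markers summed to 5012 CPM in dEXO, 4646 CPM in EXO and 6391 CPM in PBS in this class. Whether stage had a part in these differences was not tested. The most abundant genes differed less: the ratio for dEXO over PBS was 0.20 (0.18 to 0.22) for Gstm5, -0.16 (-0.19 to -0.14) for Gpx4, -0.54 (-0.58 to -0.50) for Gstt4 and 0.10 (0.027 to 0.18) for Gsto2.

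The other genes that differed in spermatid-like cells were at low levels. Lower in dEXO than in PBS were Gsta3, with 16.5 CPM in dEXO, 22.3 CPM in EXO and 30.9 CPM in PBS, and Gsta2, with 4.23 CPM in dEXO, 5.39 CPM in EXO and 9.95 CPM in PBS. So were Gpx1, with 11.7 CPM in dEXO, 15.1 CPM in EXO and 18.4 CPM in PBS, Gpx8, with 2.89 CPM in dEXO, 3.54 CPM in EXO and 5.83 CPM in PBS, and Gstp1, with 3.22 CPM in dEXO, 2.59 CPM in EXO and 5.15 CPM in PBS. The ratio of Gpx8 turned to 0.40 for dEXO over PBS and 1.00 for EXO over PBS with each cell counting equally. The Leydig markers, 10 of 10 detected, stood at 988 CPM in dEXO, 1153 CPM in EXO and 1176 CPM in PBS here, and their part was not tested. Gstm6 had 4.36 CPM in dEXO, 2.27 CPM in EXO and 2.06 CPM in PBS, and Gsto1 had 2.03 CPM in dEXO, 2.48 CPM in EXO and 0.686 CPM in PBS. Between dEXO and EXO, Gclc gave 0.64 (0.14 to 1.16), Gpx3 -0.61 (-1.09 to -0.12) and Gstt1 -0.61 (-1.17 to -0.046), from at most 4 CPM in either library, Gclc turning to -0.21 within cluster c10.

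Macrophage-like cells, with 7 or 8 measured genes, had 5 of 8 that differed for dEXO over PBS (62.5%), all higher in dEXO, against 24.9% of all genes (16.3% higher and 8.58% lower). For EXO over PBS it was 3 of 7 (42.9%), all higher in EXO, against 16.5% of all genes (6.67% higher and 9.84% lower), and for dEXO over EXO 2 of 8 (25.0%), both higher in dEXO, against 22.7% of all genes (17.6% higher and 5.08% lower). Gpx1, which led there, was not among them, with -0.42 (-0.61 to -0.24) for dEXO over PBS and -0.16 (-0.32 to -0.002) for EXO over PBS. Gpx4 had 268 CPM in dEXO, 222 CPM in EXO and 198 CPM in PBS.

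The macrophage-like genes that differed were led by other classes. Gstm1 had 682 CPM in dEXO, 583 CPM in EXO and 268 CPM in PBS, with log2 ratios of 1.35 (1.08 to 1.62) for dEXO over PBS and 1.12 (0.86 to 1.40) for EXO over PBS. Gstm2 had 266 CPM in dEXO, 264 CPM in EXO and 96.7 CPM in PBS and Mgst1 had 89.997 CPM in dEXO, 69.9 CPM in EXO and 25.8 CPM in PBS. The Leydig markers, 10 of 10 detected, summed to 2187 CPM in dEXO, 1208 CPM in EXO and 498 CPM in PBS, in the same order of libraries as Gstm1 and Mgst1, and their part was not tested. Gstm5 had 337 CPM in dEXO, 126 CPM in EXO and 98.3 CPM in PBS. Late spermatocyte markers were at 1088 CPM in dEXO, 506 CPM in EXO and 184 CPM in PBS, and their part was not tested. Gclm had 63.2 CPM in dEXO, 31.9 CPM in EXO and 35.5 CPM in PBS, a ratio of 0.83 (0.011 to 1.68) for dEXO over PBS. Between dEXO and EXO, where the median of all genes was 0.13, Gclm gave 0.99 (0.15 to 1.85) and Gstm5 1.42 (1.03 to 1.81), or 0.86 and 1.29 relative to that median.

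In T or NK-like cells 5 of 21 measured genes differed for dEXO over PBS (23.8%), 2 higher and 3 lower in dEXO, against 18.9% of all genes (12.3% higher and 6.61% lower). For EXO over PBS it was 7 of 21 (33.3%), 1 higher and 6 lower in EXO, against 13% of all genes (5.42% higher and 7.61% lower). Between dEXO and EXO it was 6 of 19 (31.6%), all higher in dEXO, against 17.1% of all genes (13.7% higher and 3.36% lower). Gstp3, which led in these cells, gave log2 ratios of -0.21 (-0.52 to 0.10) for dEXO over PBS and 0.00046 (-0.27 to 0.27) for EXO over PBS. Gpx1 had 401 CPM in dEXO, 422 CPM in EXO and 497 CPM in PBS, and Gpx4 had 343 CPM in dEXO, 355 CPM in EXO and 309 CPM in PBS.

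Gsta3, Gpx3 and Gsta2 were lower in both exosome libraries than in PBS, and Mgst1 and Gsta4 were lower in EXO than in PBS. Gsta3 had 37.0 CPM in dEXO, 42.8 CPM in EXO and 97.4 CPM in PBS, with log2 ratios of -1.40 (-1.91 to -0.91) for dEXO over PBS and -1.19 (-1.61 to -0.78) for EXO over PBS. Gpx3 had 9.47 CPM in dEXO, 15.5 CPM in EXO and 51.5 CPM in PBS, and its ratio for dEXO over PBS was -2.44 (-3.50 to -1.54). Gsta2 had 18.9 CPM in dEXO, 15.5 CPM in EXO and 37.0 CPM in PBS, Mgst1 had 92.1 CPM in dEXO, 62.6 CPM in EXO and 128 CPM in PBS and Gsta4 had 29.3 CPM in dEXO, 19.2 CPM in EXO and 32.5 CPM in PBS. Some of these directions turned with the choice of cells. The log2 ratio of Gsta3 was 0.21 for EXO over PBS without the cells of highest doublet score and 0.16 for dEXO over PBS with clusters at Leiden resolution 0.5. Mgst1 gave 0.20 for EXO over PBS at that resolution and 0.12 with each cell counting equally, and Gsta4 gave 0.27 and 0.53 for the same pair. Gstm1 had 599 CPM in dEXO, 478 CPM in EXO and 646 CPM in PBS and Gstm2 had 274 CPM in dEXO, 243 CPM in EXO and 313 CPM in PBS, under 1.5-fold in both pairs against PBS. The Leydig markers, 10 of 10 detected, summed to 1699 CPM in dEXO, 1695 CPM in EXO and 3071 CPM in PBS, also highest in PBS. Against PBS, 8 were lower and 2 higher in each exosome library, and their part was not tested. Higher in dEXO were Gstm5, with 306 CPM in dEXO, 127 CPM in EXO and 99.7 CPM in PBS, Gstt4, with 42.2 CPM in dEXO, 22.9 CPM in EXO and 7.28 CPM in PBS, Gsto2, with 36.1 CPM in dEXO, 9.3 CPM in EXO and 3.92 CPM in PBS, and Gstt2, with 33.6 CPM in dEXO, 16.1 CPM in EXO and 25.2 CPM in PBS. Late spermatocyte markers were at 1250 CPM in dEXO, 497 CPM in EXO and 202 CPM in PBS, and their part was not tested.

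A list of 76 other glutathione and antioxidant genes was described in the same way. In Leydig-like cells 8 of 72 measured genes of that list differed for dEXO over PBS (2 higher, 6 lower), against 23.4% of all genes (17.7% higher and 5.71% lower). For EXO over PBS it was 5 of 72 (1 higher, 4 lower), against 16.6% (12.2% higher and 4.4% lower). Hmox1, Srxn1 and Cbr3, known targets of NRF2, were lower in both exosome libraries than in PBS. Hmox1, heme oxygenase, had 25.3 CPM in dEXO, 33.6 CPM in EXO and 52.7 CPM in PBS. Srxn1, which repairs overoxidised peroxiredoxins, had 8.38 CPM in dEXO, 11.6 CPM in EXO and 21.7 CPM in PBS. Cbr3, a carbonyl reductase, had 52.3 CPM in dEXO, 56.1 CPM in EXO and 102 CPM in PBS. Of the 11 measured genes listed for NRF2 control and targets, 2 were past 1.5-fold against PBS in each exosome library, namely Hmox1 and Cbr3. The shares of all genes were 23.4% for dEXO over PBS and 16.6% for EXO over PBS, and the other genes of the 11 stayed under 1.5-fold. Srxn1 is listed with the peroxiredoxins and thioredoxins and is not among these 11. Nfe2l2, which encodes NRF2, ran otherwise, with 78.3 CPM in dEXO, 130.0 CPM in EXO and 99.5 CPM in PBS, highest in EXO.

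Other genes of the list were highest in dEXO. Txnip, an inhibitor of thioredoxin, had 811 CPM in dEXO, 229.9 CPM in EXO and 360.2 CPM in PBS, with log2 ratios of 1.17 (1.14 to 1.20) for dEXO over PBS and 1.82 (1.78 to 1.85) for dEXO over EXO. Lrp8, the receptor that takes up selenoprotein P, had 2.25 CPM in dEXO, 1.6 CPM in EXO and 0.845 CPM in PBS. Txnrd3, the testis thioredoxin glutathione reductase, had 20.5 CPM in dEXO, 13.3 CPM in EXO and 15.013 CPM in PBS. Chac1, which degrades glutathione, was lowest there, with 0.662 CPM in dEXO, 1.27 CPM in EXO and 1.19 CPM in PBS. Slc7a11, the cystine carrier that feeds glutathione synthesis, had 54.0 CPM in dEXO, 75.2 CPM in EXO and 73.1 CPM in PBS, and did not reach 1.5-fold in any pair.

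In stromal-like cells 7 of 64 measured genes of the list differed for dEXO over PBS (10.9%), against 21.7% of all genes, and 5 of 65 for EXO over PBS (7.69%), against 20.4%. Ftl1, the ferritin light chain, was lower in both exosome libraries, with 1123 CPM in dEXO, 1126 CPM in EXO and 1775 CPM in PBS. Abcc3, an exporter of conjugates, had 10.9 CPM in dEXO, 5.49 CPM in EXO and 2.21 CPM in PBS, Hagh, of the glyoxalase system, had 85.2 CPM in dEXO, 47.2 CPM in EXO and 39.0 CPM in PBS, Txnrd3 had 60.7 CPM in dEXO, 38.6 CPM in EXO and 35.5 CPM in PBS and Sephs2, of selenoprotein synthesis, had 24.3 CPM in dEXO, 16.3 CPM in EXO and 12.3 CPM in PBS. Hagh, Abcc3, Txnrd3 and Sephs2 had their highest levels in late germ cells. Late spermatocyte markers were highest in dEXO as given above, and their part was not tested. Acsl4, which feeds lipid peroxidation, had 24.7 CPM in dEXO, 27.7 CPM in EXO and 16.0 CPM in PBS, Abcc4 had 6.91 CPM in dEXO, 6.91 CPM in EXO and 4.53 CPM in PBS and Lrp8 had 7.24 CPM in dEXO, 2.92 CPM in EXO and 0.211 CPM in PBS.

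The remaining classes held fewer measured genes of the list. In Sertoli-like cells 2 of 54 differed for dEXO over PBS, against 18.8% of all genes, and 7 of 50 for EXO over PBS, against 13.7%. Ephx1, an epoxide hydrolase that Leydig-like cells lead, had 94.0 CPM in dEXO, 32.7 CPM in EXO and 141 CPM in PBS. That was the order of the Leydig markers, whose part was not tested. Idh1 had 114 CPM in dEXO, 86.3 CPM in EXO and 154 CPM in PBS, Txnip had 100.1 CPM in dEXO, 56.8 CPM in EXO and 54.7 CPM in PBS, Txnrd1 had 39.1 CPM in dEXO, 32.7 CPM in EXO and 54.0 CPM in PBS, Txnrd3 had 42.7 CPM in dEXO, 29.995 CPM in EXO and 24.0 CPM in PBS, Cat, catalase, had 28.3 CPM in dEXO, 22.3 CPM in EXO and 36.7 CPM in PBS and Dpep1 had 7.39 CPM in dEXO, 15.9 CPM in EXO and 0.75 CPM in PBS. In T or NK-like cells it was 3 of 42 and 6 of 45 for the same pairs, against 18.9% and 13% of all genes. Idh1 had 46.5 CPM in dEXO, 36.6 CPM in EXO and 84.6 CPM in PBS, Ephx1 had 49.1 CPM in dEXO, 52.1 CPM in EXO and 82.3 CPM in PBS, Me1 had 117 CPM in dEXO, 86.2 CPM in EXO and 148 CPM in PBS and Sod3 had 8.61 CPM in dEXO, 11.8 CPM in EXO and 21.3 CPM in PBS, each highest in PBS. Hagh had 83.5 CPM in dEXO, 54.6 CPM in EXO and 45.9 CPM in PBS, Ggct had 72.3 CPM in dEXO, 39.7 CPM in EXO and 56.0 CPM in PBS, Txnrd3 had 27.5 CPM in dEXO, 14.9 CPM in EXO and 4.48 CPM in PBS, Mafg had 33.6 CPM in dEXO, 18.6 CPM in EXO and 25.8 CPM in PBS and Sephs2 had 48.2 CPM in dEXO, 28.5 CPM in EXO and 39.2 CPM in PBS.

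Macrophage-like cells had 5 of 31 that differed for dEXO over PBS, against 24.9% of all genes, and 5 of 31 for EXO over PBS, against 16.5%. Me1, an NADPH source that Leydig-like cells lead, had 179.994 CPM in dEXO, 79.0 CPM in EXO and 35.5 CPM in PBS. That was the order of the Leydig markers, whose part was not tested. Hpgds, a glutathione-dependent prostaglandin D synthase that macrophage-like cells lead, had 61.3 CPM in dEXO, 111 CPM in EXO and 106 CPM in PBS. Slc3a2 had 189.6 CPM in dEXO, 122 CPM in EXO and 184 CPM in PBS, Nfe2l2 had 63.2 CPM in dEXO, 59.2 CPM in EXO and 91.9 CPM in PBS, Idh1 had 65.1 CPM in dEXO, 53.2 CPM in EXO and 32.2 CPM in PBS and Hagh had 99.6 CPM in dEXO, 65.3 CPM in EXO and 50.0 CPM in PBS.

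Among germ cells, 11 of 60 measured genes of the list differed for dEXO over PBS in spermatid-like cells, against 31% of all genes, and 7 of 55 for EXO over PBS, against 18.9%. Ftl1 had 33.3 CPM in dEXO, 32.4 CPM in EXO and 66.2 CPM in PBS, Srxn1 had 9.97 CPM in dEXO, 7.56 CPM in EXO and 16.0 CPM in PBS, Mafg had 1.9 CPM in dEXO, 1.59 CPM in EXO and 4.29 CPM in PBS and Selenop had 19.5 CPM in dEXO, 24.8 CPM in EXO and 32.6 CPM in PBS, each highest in PBS. Txnip had 22.6 CPM in dEXO, 10.6 CPM in EXO and 14.6 CPM in PBS, Hpgds had 11.2 CPM in dEXO, 6.29 CPM in EXO and 10.5 CPM in PBS, Secisbp2 had 17.8 CPM in dEXO, 10.9 CPM in EXO and 10.5 CPM in PBS, Chac1 had 2.59 CPM in dEXO, 4.34 CPM in EXO and 3.43 CPM in PBS and Abcc1 had 1.8 CPM in dEXO, 0.899 CPM in EXO and 0.858 CPM in PBS. In spermatogonia-like cells 2 of 54 differed for dEXO over PBS, 5 of 52 for EXO over PBS and 0 of 56 for dEXO over EXO, against 8.53%, 9.6% and 10.2% of all genes. Selenop, the selenium carrier, had 16.0 CPM in dEXO, 23.7 CPM in EXO and 7.42 CPM in PBS, Aifm2, a lipid peroxidation suppressor, had 9.9 CPM in dEXO, 7.66 CPM in EXO and 16.1 CPM in PBS, Acsl4 had 23.0 CPM in dEXO, 31.4 CPM in EXO and 16.5 CPM in PBS and Prdx3 had 19.6 CPM in dEXO, 24.8 CPM in EXO and 16.1 CPM in PBS. Between dEXO and EXO 13 of 54 differed in early spermatocyte-like cells and 5 of 52 in late ones, against 11.6% and 9.76% of all genes. Ephx1 had 139.6 CPM in dEXO and 70.1 CPM in EXO in the early stage and 52.6 CPM in dEXO and 26.9 CPM in EXO in the late stage. Cbr1 had 23.8 CPM in dEXO and 12.4 CPM in EXO, Glrx had 14.0 CPM in dEXO and 7.33 CPM in EXO and Prdx3 had 42.7 CPM in dEXO and 23.8 CPM in EXO in the early stage, and Esd had 20.9 CPM in dEXO and 8.98 CPM in EXO, Dpep1 had 3.53 CPM in dEXO and 7.38 CPM in EXO and Sod3 had 11.8 CPM in dEXO and 7.38 CPM in EXO in the late stage.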

How the data were processed

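The data are UMI counts of genes by cell barcode, deposited unnormalized for 3 testis libraries. Their headers record Cell Ranger 5.0.1. Seurat and GRCm38 are also named, per the submitters' processing notes. The labels give testis as the tissue, although the extraction protocol speaks of aorta. All 55450 gene identifiers matched GENCODE M21, from which coordinates were taken.

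Cells needed 500 UMIs and 300 genes or more, with mitochondrial UMIs of 20% or less. Scrublet called 6 doublets where loading would give 7.81% (dEXO), 8.18% (EXO) and 4.41% (PBS), so removing the highest-scoring cells was run as an alternative. Cells were scaled to 10000 UMIs, and 2000 variable genes (without the glutathione genes and the 76 listed others), 30 principal components, 15 neighbours and Leiden clustering at resolution 1 gave 21 clusters, 25 after a mixed germ cluster was split. Clusters were named from markers of 20 cell classes with at least 3 raised markers. The naming rule was revised after clusters had been seen, and clusters with at least 33.3% of the Leydig marker level beside another class stayed unnamed. UMIs were summed per library and class. Genes named per class are all past 1.5-fold whose 95% interval excludes equality, plus the 4 highest; of the 76 others, up to 4 per class and pair. Counts of 0 were set to a floor of 3 counts for ratios. Shared transcript ends were counted as 100-base windows of the last 500 bases that occur in another gene. The ratio calculation was tested on simulated data. Members and lists were chosen with earlier results of these data known. With 1 library per group no test was run. Intervals cover counting error only. Calculations used Python 3.11.15, scanpy 1.11.5, numpy 2.4.6, scipy 1.17.1, pandas 2.3.3, leidenalg 0.10.2, igraph 0.11.9 and matplotlib 3.10.9.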

Additional observations from a re-analysis of the deposited data

How the results depend on the processing

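The share of measured values past 1.5-fold, over the glutathione genes and classes together, was 27.3% for dEXO over PBS, 18.6% for EXO over PBS and 24.2% for dEXO over EXO. By class, the share of all genes was 8.53% to 31% for dEXO over PBS. It was 9.6% to 20.4% for EXO over PBS and 9.76% to 22.7% for dEXO over EXO. The alternatives that follow are given without an all-gene share. Thinning each cell to 1000 UMIs left fewer measured values and gave 17.0%, 9.09% and 13.3% for these pairs. The other 14 alternatives for each pair gave 19.0% to 37.0%, 13.2% to 26.1% and 17.0% to 32.1%, among them 2 chosen after seeing the data, without cluster c5 and without cluster c10. The list of 76 other genes gave 10.5%, and 9.40% to 15.8% under 10 alternatives. Between 31 and 36 of the 36 genes kept their leading class. It changed in some alternatives for Gclm, Gclc, Gss, Gstm4, Gstm5, Gsto2, Gstz1, Gstp2 and Gpx1. Gstm5 and Gsto2 then led in late spermatocyte-like cells and Gclm in early spermatocyte-like cells. Of 120 named values, 99 never reversed, and 24 of 1594 alternative values did; except where cluster makeup is stated, the cause was not tested. No paired analysis was possible because each group has 1 library.

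Within single clusters the log2 ratio reversed for Gpx3 in Leydig-like cells (EXO over PBS 0.17 in c1 and 0.095 in c5, dEXO over PBS 0.014 in c5), Gstm6 there (dEXO over PBS -0.32 in c1), Mgst2 there (dEXO over EXO 0.51 in c3), Gstm2 and Gstm1 in early spermatocyte-like cells (dEXO over EXO -0.17 and -0.40 in c7.0) and Gclc in spermatid-like cells (dEXO over EXO -0.21 in c10). With each cell counting equally it reversed for Gstt2 in Sertoli-like cells (EXO over PBS -0.24), Gpx8 in spermatid-like cells (dEXO over PBS 0.40, EXO over PBS 1.00), Mgst1 and Gsta4 in T or NK-like cells (EXO over PBS 0.12 and 0.53), Gstm6 and Gstt1 in early spermatocyte-like cells (dEXO over EXO -0.37 and -0.18) and Gpx3 in late ones (0.40). At resolution 0.5 it reversed in T or NK-like cells for Mgst1, Gsta4 (EXO over PBS 0.20 and 0.27) and Gsta3 (dEXO over PBS 0.16), and for Gsta3 in early spermatocyte-like cells (dEXO over EXO -0.049). Without the highest doublet scores it reversed for Gsta3 in T or NK-like cells (EXO over PBS 0.21) and Gpx1 in early spermatocyte-like cells (dEXO over EXO -0.031). With the lowest class level subtracted it reversed for Gpx6 in Leydig-like cells (dEXO over PBS -0.13, dEXO over EXO -1.18).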
